A study of Homo sapiens with 3 samples.

Results

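The miR-28, miR-151a and miR-708 family is made up of 3 related miRNA hairpins. Its members here were the 6 mature miRNAs cut from them, miR-28-5p, miR-28-3p, miR-151a-5p, miR-151a-3p, miR-708-5p and miR-708-3p, taken by name from 2588 listed human miRNAs. The cells were SK-MEL-2, a human melanoma line long kept in culture, and small RNAs were sequenced from total RNA. The libraries came from untreated cells (control), from cells exposed for 3 min to a jet of nonthermal plasma, an ionised gas that does not heat the cells much, and from cells exposed for 5 min, each collected at Day 2. Each of the 3 groups was 1 library. The counts therefore have no replicate check, no test was made, and every ratio compares libraries and not conditions.

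A miRNA hairpin is cut into a 5p and a 3p arm, and the arm that is loaded into an Argonaute protein guides it to messenger RNAs that pair with the seed, bases 2 to 8 of the miRNA. miR-28-5p and miR-708-5p are known to share a seed and so overlapping targets, while miR-151a-5p comes from a related hairpin but has another seed. Each hairpin lies within a protein-coding gene. miR-28-5p is known to repress NFE2L2 (NRF2), the main regulator of antioxidant genes, miR-151a is known for promoting the migration of liver cancer cells together with its host gene, and miR-708 was described in mouse as induced by the endoplasmic reticulum stress factor CHOP.

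The mature sequences of miR-708, whose 2 arms the results below turn on, and of miR-28-3p, for comparison with miR-708-3p, are given from RefSeq (GRCh38.p14). These are 3 of the 6 members, and the sequences of the others are not printed. The arms of miR-708 lie on chromosome 11, minus strand, at 79402077 to 79402099 (5p) and 79402032 to 79402053 (3p), and miR-28-3p on chromosome 3, plus strand, at 188688834 to 188688855. Capitals mark the seed.
hsa-miR-708-5p: aAGGAGCUuacaaucuagcuggg
hsa-miR-708-3p: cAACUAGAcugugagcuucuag
hsa-miR-28-3p: cACUAGAUugugagcuccugga
The 3p arms of MIR708 and MIR28 share a run of 6 bases, ACUAGA, that starts at base 3 of miR-708-3p and at base 2 of miR-28-3p. Their seeds are thus shifted by 1 base and differ. They also share the 8 bases UGUGAGCU further along. Beside miR-28-5p, which is known to share the seed of miR-708-5p, a search of 2370 human mature miRNAs in the sequence table found that seed in miR-3139 (chromosome 4), which had 0 counts in all 3 libraries, which allows up to 2.87 CPM (counts scaled to a common library total) in the control, 3.10 in the 3 min library and 4.87 in the 5 min library. No other miRNA in the table had the seed of miR-708-3p or of miR-28-3p.

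MIR28 (chromosome 3, 188688781 to 188688866, plus strand) lies in an intron of LPP, a focal adhesion protein. MIR151A (chromosome 8, 140732564 to 140732653, minus strand) lies in an intron of PTK2, which encodes focal adhesion kinase. MIR708 (chromosome 11, 79402022 to 79402109, minus strand) lies in an intron of TENM4, a teneurin. All 3 hairpins run on the strand of their host gene, and positions are on GRCh38.

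The control library held 1045482 counts, the 3 min library 966943 and the 5 min library 615645. Only miRNAs that averaged 20 counts or more were compared (called measured below), which 231 miRNAs did, all 6 members among them. Of the melanocyte and melanoma markers, miR-211-5p, made from an intron of the melanocyte gene TRPM1, gave 128 reads in the control, 97 in the 3 min library and 65 in the 5 min library, and 5 of the 10 (miR-506-3p, miR-508-3p, miR-509-3p, miR-513a-5p and miR-514a-3p) had none in these libraries. The list as a whole summed to 30517 CPM in the control, 41177 CPM with 3 min of plasma and 40372 CPM with 5 min. Most of it was miR-221-3p (23127, 29736 and 20382 counts in that order). The sum hides members that differ. After 5 min, scaled as below, miR-221-3p stood at 1.48 times control and miR-146a-5p at 1.46 times. miR-222-3p stood at 0.789 times, miR-204-5p at 0.812 times and miR-211-5p at 0.856 times (0.625 to 1.16, which includes 1). The blood list summed to at most 18.8 CPM. Below, CPM are scaled between libraries by TMM (trimmed mean of M-values). Intervals are exact 95% intervals that cover counting error only, and not the spread between cultures. Reads of small RNA without molecular identifiers include PCR copies, so the intervals can be too narrow even for counting error.

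The 6 members summed to 2434 counts in the control library, 2238 in the 3 min library and 1212 in the 5 min library, or 0.233%, 0.231% and 0.197% of each library. The family sum stood at 2335 CPM after 3 min against 2327 CPM in the control, a ratio of 1.003 (0.947 to 1.06). After 5 min it stood at 1952 CPM against 2327 CPM in the control, 1.19-fold lower (1.11 to 1.28). Without miR-151a-3p the other 5 members summed to 841 CPM after 5 min and 837 CPM in the control, a ratio of 1.004 (0.899 to 1.12). After 3 min the same 5 summed to 936 CPM, a ratio to control of 1.12 (1.02 to 1.23). Under TMM, the sum without miR-151a-3p was thus level with control after 5 min and above it after 3 min. That sum is not given under other scalings, and its place against control depends on the scaling. DESeq2 size factors, another scaling, put the 5 min log2 ratio of all 6 members at -0.46, where TMM gave -0.25. In bulk RNA, fewer cells that hold a miRNA and less of it per cell cannot be told apart.

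**Figure D1:**
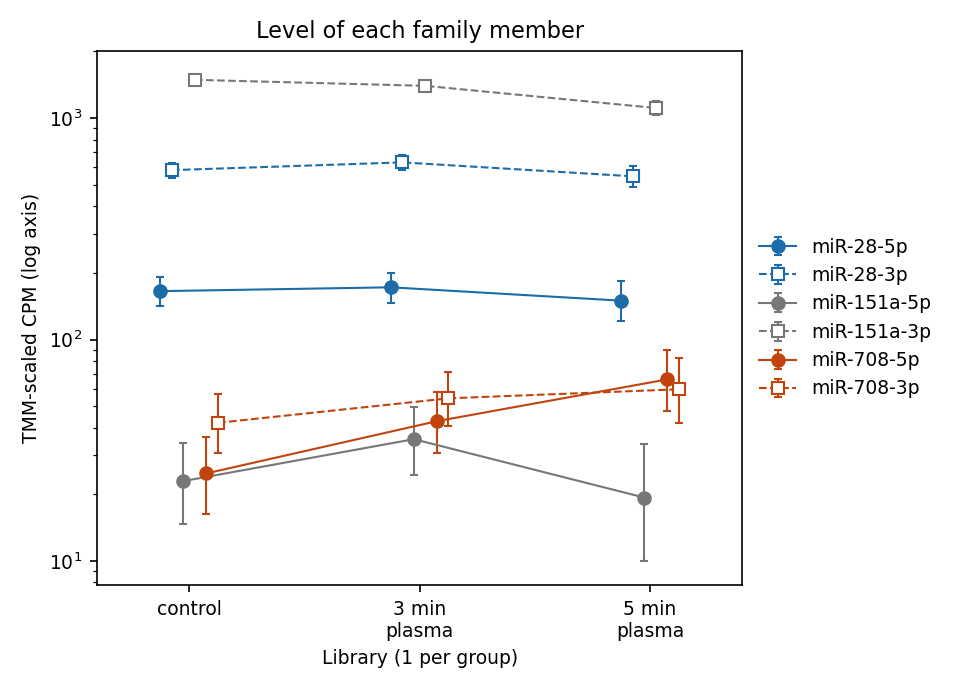
TMM-scaled CPM (log axis) of each of the 6 members in the control, 3 min and 5 min libraries. Points are single libraries, filled for 5p and open for 3p arms, and bars are exact 95% counting intervals. miR-151a-3p is highest throughout and lowest after 5 min (1112 CPM), while miR-708-5p goes through 24.9, 42.8 and 66.0 CPM.

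miR-151a-3p was the most abundant member, with 1490 CPM in the control, 1399 in the 3 min library and 1112 in the 5 min library, ranks 50, 54 and 57 among the listed miRNAs of each library. miR-28-3p followed with 582, 631 and 546 CPM, and miR-28-5p with 165, 172 and 150 CPM. The intervals of these 3 members did not overlap each other in any library. The scarcer members were miR-708-3p at 42.1, 54.3 and 59.6 CPM, miR-708-5p at 24.9, 42.8 and 66.0 CPM and miR-151a-5p at 22.9, 35.5 and 19.3 CPM. In the control and after 3 min the intervals of miR-708-5p overlapped those of both other scarce members. After 5 min those of miR-708-5p (47.4 to 89.6) and miR-708-3p (42.0 to 82.2) overlapped, and both lay above miR-151a-5p (9.99 to 33.8). Adapter ligation favours some RNA ends, so an order of levels between different miRNAs is an order of reads and not of molecules.

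Shares of the family's counts show the same members against each other with no scaling between libraries. miR-151a-3p made up 64.0% of the family in the control (62.1 to 65.9), 59.9% in the 3 min library (57.9 to 62.0) and 56.9% in the 5 min library (54.1 to 59.7). The 2 arms of MIR708 made up 2.88% in the control (2.25 to 3.62), 4.16% in the 3 min library (3.37 to 5.07) and 6.44% in the 5 min library (5.12 to 7.97). The arms of MIR28 took 32.1% (30.3 to 34.0), 34.4% (32.4 to 36.4) and 35.6% (32.9 to 38.4) in the same order. MIR151A thus gave up share along the series. The gain in share of MIR28 lay within overlapping intervals, and its arms summed to 696 CPM after 5 min against 748 in the control.

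**Figure D2:**
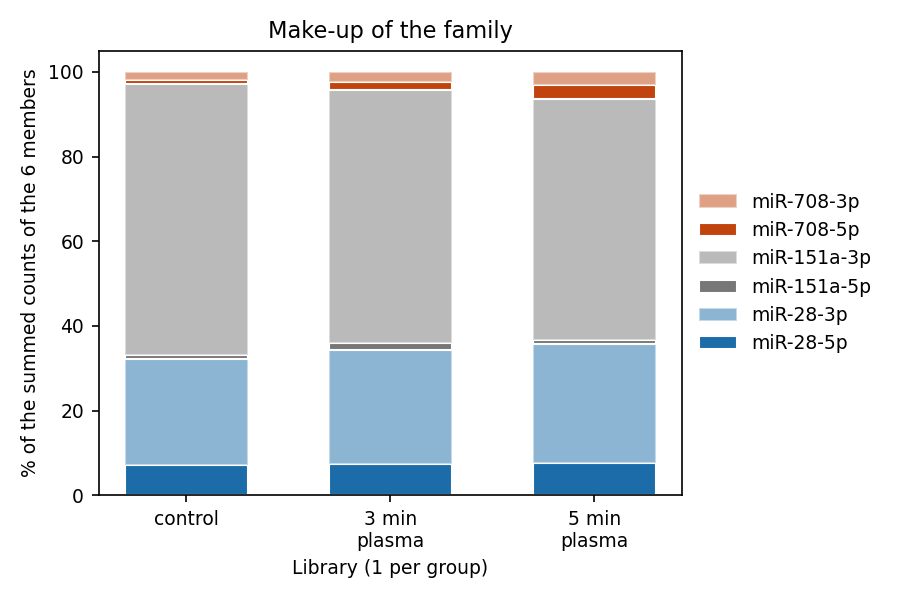
Stacked bars give each member's percentage of the summed counts of the 6 members in the control, 3 min and 5 min libraries. The miR-151a-3p part is 64.0% of the control bar and 56.9% of the 5 min bar, and the 2 miR-708 parts at the top total 2.88% and 6.44%.

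The 5 min library was set against the control to ask what the longer exposure left in the cells at Day 2. miR-708-5p stood highest of the family, 2.66-fold above control, and was the 1 member of 6 past 1.5-fold in either direction. The same size was passed by 67 of 231 measured miRNAs, a background of 29.0%, so the count of members is no excess. miR-151a-3p was 1.34-fold lower, and both arms of MIR28 lay close to control. The median log2 ratio of the 6 members was -0.12, beside 0.05 over all 231.

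miR-708-5p gave 26 reads in the control library and 41 in both the 3 min and the 5 min library, which were less deep. At the control's level, 15.4 counts would have stood in the 5 min library and 23.8 in the 3 min library. Its 5 min ratio was 2.66 (1.59 to 4.52), the 15th highest of 231 and the 8th highest of the 100 miRNAs that averaged 20 to under 100 counts. Of all measured miRNAs 9.52% were at least 2-fold higher, and of those 100 scarce ones 15.0%. Its partner arm miR-708-3p had 44, 52 and 37 counts in the 3 libraries, and its 5 min ratio was 1.42 (0.890 to 2.25), an interval that includes 1. Summed over both arms, MIR708 gave 126 CPM after 5 min against 66.9 CPM in the control, a ratio of 1.88 (1.34 to 2.63).

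Beside the higher miR-708 counts, the marker sums of the other cell types were, under TMM, also higher in both exposed libraries, except the neural sum after 3 min. Marker sums are not given under other scalings, and their place against control can depend on the scaling. The melanocyte and melanoma sum, mostly miR-221-3p, was higher in both exposed libraries as well. Its members differed in direction after 5 min. Some differences lie within counting error. After 5 min the liver marker miR-122-5p stood at 1.12 times control (0.829 to 1.51) and the endothelial miR-126-3p at 1.19 times (0.997 to 1.42). The blood list held only 14, 18 and 10 counts. The 5 epithelial markers summed to 15.3 CPM in the control, 29.2 in the 3 min library and 70.9 in the 5 min library, with none at 0 in all libraries and none reaching the count minimum. The 3 muscle markers summed to 0.956, 3.13 and 24.2 CPM, nearly all from miR-1-3p (0, 3 and 15 counts), with miR-206 at 0 counts throughout and miR-133a-3p at 1, 0 and 0. The 4 fibroblast and smooth muscle markers summed to 4001, 5050 and 5559 CPM, nearly all from miR-199a-3p (4098, 4729 and 3392 counts), while miR-145-5p and miR-214-3p had at most 2 counts in a library. The neural list, mostly miR-9-5p, summed to 17523, 16420 and 18854 CPM, lower than control after 3 min and higher after 5 min. Its members did not move together. After 5 min miR-9-5p stood at 1.11 times control (1.09 to 1.14) and miR-128-3p at 0.658 times (0.596 to 0.726). miR-124-3p had 0 counts throughout. The part of these markers in the miR-708 ratio was not tested. Depth also runs with exposure, and its part was likewise not tested.

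miR-151a-3p, the member with the most reads, had 690 counts after 5 min, where 925 would have stood at the control's level. Its ratio to control was 0.746 (0.681 to 0.817), the 40th lowest of 231 and the 9th lowest of the 58 miRNAs that averaged 1000 counts or more. The interval excluded 1 for 2 of 6 members, this one and miR-708-5p, and for 55.0% of all measured miRNAs, so it does not set a miRNA apart. Relative to the median of all measured miRNAs, which removes the scaling, miR-151a-3p stood at -0.47 and miR-708-5p at 1.36 on the log2 scale. Under DESeq2 size factors miR-151a-3p was 1.55-fold lower and so past 1.5-fold. That scaling put the median of all miRNAs at -0.16 and turned the split of miRNAs past 1.5-fold to 27 higher and 42 lower, where TMM gave 40 higher and 27 lower.

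miR-28-5p, the NFE2L2 repressor, had 93 counts after 5 min against 173 in the deeper control, a ratio of 0.906 (0.696 to 1.17). miR-28-3p had 339 counts after 5 min against 609 in the control, a ratio of 0.938 (0.819 to 1.07). miR-151a-5p had 12 against 24, a ratio of 0.842 (0.384 to 1.75). All 3 intervals include 1 under TMM. Under DESeq2 size factors the log2 ratio of miR-28-3p was -0.30 (-0.50 to -0.11), and under TMM over all listed miRNAs -0.26 (-0.46 to -0.07), both intervals without 0. The summed 5p arms of miR-28 and miR-708, which carry the shared seed, stood at 216 CPM after 5 min and 190 CPM in the control, a ratio of 1.13 (0.905 to 1.42). This interval includes 1. The sum is not given under other scalings, and its place against control depends on the scaling.

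**Figure D3:**
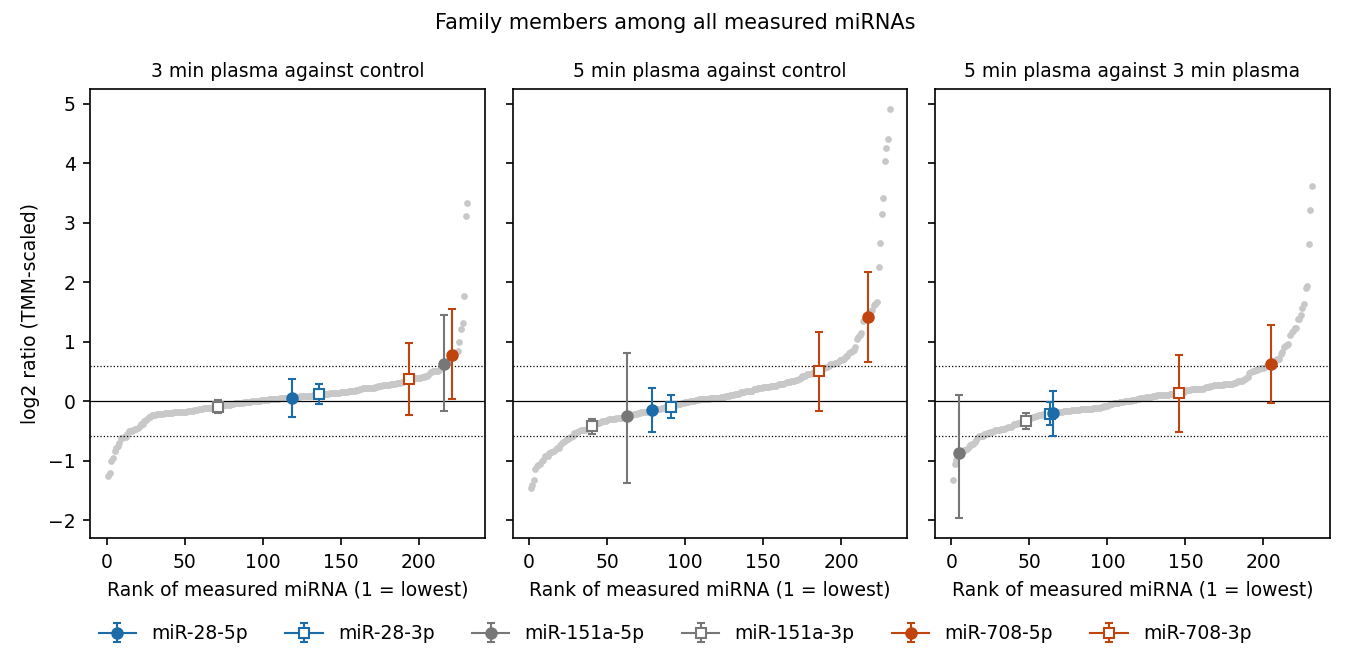
TMM-scaled log2 ratios of all 231 measured miRNAs in rank order (grey) for 3 min plasma against control, 5 min plasma against control and 5 min against 3 min plasma. Members are coloured with exact 95% counting intervals, and dotted lines mark 1.5-fold. miR-708-5p lies above the upper line in each panel (log2 ratios 0.78, 1.41 and 0.63), while both MIR28 arms lie between the lines.

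The shorter exposure of 3 min was also set against the control, and shares the control library with the 5 min comparison. Past 1.5-fold were 2 of 6 members, miR-708-5p and miR-151a-5p, both higher, against a background of 12.1% of 231 measured miRNAs. Both are scarce, and 22.0% of the 100 miRNAs that averaged 20 to under 100 counts also passed that size. miR-708-5p stood at 42.8 CPM after 3 min against 24.9 CPM in the control, a ratio of 1.72 (1.03 to 2.93). miR-151a-5p had 34 counts after 3 min against 24 in the control, a ratio of 1.55 whose interval of 0.890 to 2.72 includes 1. The interval excluded 1 for 1 of 6 members, miR-708-5p, and for 37.7% of all measured miRNAs. Under DESeq2 size factors the log2 ratio of miR-708-5p was 0.71 (-0.03 to 1.48), an interval that includes 0, as does that under TMM over all listed miRNAs (-0.02 to 1.49). Under these 2 scalings miR-151a-5p, at log2 ratios of 0.55 and 0.57, was not past 1.5-fold. The ratio of miR-708-3p was 1.29 (0.847 to 1.97).

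The abundant members stood near control after 3 min. miR-151a-3p had a ratio of 0.939 (0.872 to 1.01), miR-28-3p of 1.08 (0.967 to 1.22) and miR-28-5p of 1.04 (0.836 to 1.30), and the direction of miR-28-5p turned under DESeq2 size factors. The median log2 ratio of the 6 members was 0.24, beside 0.05 over all 231. Reads of miR-151a-5p may be split with miR-151b, a separate entry of nearly the same mature sequence whose hairpin (chromosome 14, 100109419 to 100109514, minus strand) lies in EVL on the strand opposite to that gene. miR-151b gave 6 reads in the control library and 5 in each exposed library. With the 2 entries summed, the 3 min ratio of miR-151a-5p was 1.42 and no longer past 1.5-fold.

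The comparison of 5 min with 3 min plasma set the exposures beside each other, with the control entering only the scaling and the count minimum. Here 2 of 6 members passed 1.5-fold, against a background of 21.6%. Both are scarce, and 36.0% of the 100 miRNAs that averaged 20 to under 100 counts passed that size here. miR-708-5p was 1.54-fold higher (0.977 to 2.44) and miR-151a-5p 1.84-fold lower (0.927 to 3.89), both with intervals that include 1. Under DESeq2 size factors miR-708-5p was 1.41-fold higher and no longer past 1.5-fold, and under TMM over all listed miRNAs its log2 ratio was 0.51, also short of it. The log2 ratio of miR-151a-5p was then -1.01 (-2.10 to -0.03) and -0.99 (-2.07 to -0.003), intervals without 0, but with miR-151b summed in it was -0.57 (-1.49 to 0.28) and not past 1.5-fold. Of the abundant members, miR-151a-3p was 1.26-fold lower after 5 min (1.15 to 1.38) and miR-28-3p 1.16-fold lower (1.01 to 1.32). miR-28-5p had a ratio of 0.870 (0.668 to 1.13) and miR-708-3p of 1.10 (0.701 to 1.71). The interval excluded 1 for 2 of 6 members and for 49.8% of all measured miRNAs. Past 1.5-fold were 30 higher and 20 lower miRNAs, which became 21 higher and 35 lower under DESeq2 size factors.

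Ratios between hairpins within a library need no scaling. For each 100 counts of MIR28 there were 18.1 counts of MIR708 after 5 min, against 8.95 in the control, 2.02 times as many (1.41 to 2.89). After 3 min there were 12.1, against 8.95 in the control, 1.35 times as many (0.962 to 1.90). For each 100 counts of MIR151A there were 11.1 counts of MIR708 after 5 min and 4.42 in the control, 2.51 times as many (1.77 to 3.56). After 3 min there were 6.76, 1.53 times as many as in the control (1.10 to 2.13). MIR28 over MIR151A was 1.13 times its control value after 3 min (0.9998 to 1.28) and 1.24 times after 5 min (1.07 to 1.45). MIR708 thus stood higher against both other hairpins after 5 min, and MIR28 higher against MIR151A, with intervals that exclude 1. For single miRNAs the 5 min interval excluded 1 for 55.0% of all measured. Other pairs of hairpins were not compared, so these ratios do not set the family apart.

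The 3 hairpins differed in which arm gave the reads. The 5p arm gave 22.1% of MIR28 counts in the control (19.3 to 25.2), 21.4% in the 3 min library (18.6 to 24.5) and 21.5% in the 5 min library (17.7 to 25.7). It gave 1.52% of MIR151A counts in the control (0.974 to 2.25), 2.47% in the 3 min library (1.72 to 3.44) and 1.71% in the 5 min library (0.886 to 2.97). MIR708 was near balance, with 37.1% from the 5p arm in the control (25.9 to 49.5), 44.1% in the 3 min library (33.8 to 54.8) and 52.6% in the 5 min library (40.9 to 64.0). Its arms thus exchanged order along the series, from more 3p reads in the control to more 5p reads after 5 min, with intervals that overlap.

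**Figure D4:**
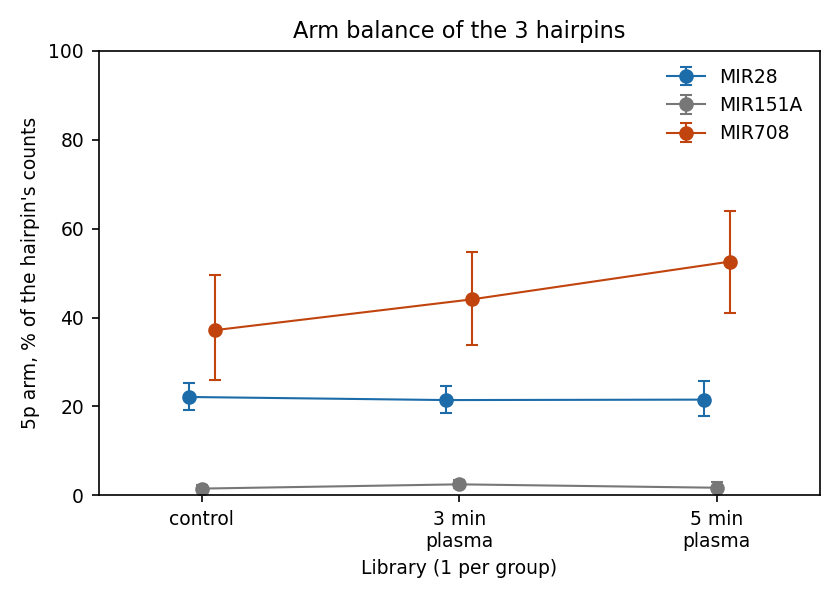
Percentage of each hairpin's counts that came from its 5p arm in the control, 3 min and 5 min libraries, with exact 95% binomial intervals. MIR28 stays between 21.4% and 22.1% and MIR151A between 1.52% and 2.47%, while MIR708 goes through 37.1%, 44.1% and 52.6% with wide intervals.

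Arm ratios were set beside those of all 49 hairpins whose 2 arms both averaged 20 counts or more. Between 5 min plasma and control the 5p to 3p ratio of MIR708 was 1.88 times higher (0.924 to 3.82), the 4th highest of 49. It was the 1 of 3 family hairpins past 1.5-fold, where 32.7% of the 49 hairpins were past it in either direction. Between 3 min plasma and control, MIR151A passed it with 1.65 times (0.942 to 2.92), where 8.16% of the 49 did, and MIR708 stood at 1.33 times (0.675 to 2.65). Between 5 min and 3 min plasma 0 of the 3 passed it, against 18.4% of the 49. MIR28 stood at 0.960 times its control ratio after 3 min (0.749 to 1.23) and 0.966 times after 5 min (0.717 to 1.29). No shift of arms in the 3 hairpins was detectable beyond counting error.

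miR-28-5p is 1 of 11 listed miRNAs known to repress NFE2L2 or its inhibitor KEAP1, which together set the antioxidant response. Of these, 5 met the count minimum. Repressors of NFE2L2 and of its inhibitor are pooled here, so the list's median has no single direction for that response. After 5 min 0 of the 5 were at least 1.5-fold higher and 1 was lower, with a median log2 ratio of -0.02, where 17.3% and 11.7% of all 231 measured miRNAs were higher and lower. The lower one was miR-7-5p, a KEAP1 repressor, at 0.642 of control (0.622 to 0.662). The most abundant was miR-27b-3p, with 24137 counts after 5 min against 36276 in the control, a ratio of 1.12 (1.10 to 1.14). Its log2 ratio of 0.165 is smaller than the step between scalings. DESeq2 size factors moved the median of all measured miRNAs from 0.05 to -0.16. After 3 min none of the 5 passed 1.5-fold, and their median was 0.04. miR-153-3p had no count in any library, and miR-144-3p had 1.

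Profiles most like those of the 3 members that averaged 100 counts or more were sought among 130 other miRNAs of that depth, by the distance between centred log2 CPM over the 3 libraries. Nearest to miR-28-5p were let-7a-5p, at a distance of 0.013, and miR-450a-5p, at 0.025. Nearest to miR-28-3p were miR-423-5p, at 0.017, and miR-15b-3p, at 0.021. All 4 were highest after 3 min and lowest after 5 min, as with let-7a-5p at 18359, 19246 and 16836 CPM in control, 3 min and 5 min libraries. Nearest to miR-151a-3p were miR-30e-3p, at 0.056, and miR-3074-3p, at 0.058. miR-30e-3p had 854, 790 and 604 CPM and miR-3074-3p 368, 331 and 277 CPM in the same order, both highest in the control. With 3 libraries, such a likeness rests on 3 points.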

How the data were processed

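Small-RNA libraries were made with a NEBNext kit from Trizol RNA, per the labels' protocols. Each deposited file lists raw counts, in whole numbers, for the mature miRNAs of 1 library. Bowtie2, bedtools and edgeR are named in the submitters' processing notes, with no role. No build, annotation, trimming, strand setting or rule for reads that match several miRNAs is given in the labels, so entries of near-identical sequence (miR-151a-5p, miR-151b) can share reads.

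Factors from TMM in edgeR 4.0.16 (R 4.3.3), over miRNAs averaging 20 counts or more, were 1.000, 0.991 and 1.008 for control, 3 min and 5 min. Ratios have exact (Clopper-Pearson) 95% intervals from the binomial split of counts. Ratios of ratios have conditional exact intervals, levels have Poisson intervals, and a count of 0 allows 3 counts. With 1 library per group no p-value was computed. Ratios and intervals were checked on simulated Poisson counts with known library totals. Those counts hold no PCR copies and no scaling error, so only the calculation was checked. Alternatives were no TMM factor, DESeq2 1.42.0 size factors, TMM over all listed miRNAs, a total without the most abundant miRNA, other count minimums and summing miR-151b. Python 3.11.15 and scipy 1.17.1 were used.

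Members and lists were chosen with earlier results of these data known. Named miRNAs were the 6 members, the 2 nearest profiles of each member averaging 100 counts or more, miR-151b, and, of the NFE2L2 and KEAP1 list, those past 1.5-fold and the most abundant. miR-3139, miR-153-3p and miR-144-3p were named after their values were seen. Marker lists for endothelial and liver cells summed to 313 to 375 CPM and 109 to 122 CPM.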

Additional observations from a re-analysis of the deposited data

How the results depend on the processing

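Against the 2, 1 and 2 members past 1.5-fold (3 min against control, 5 min against control, 5 min against 3 min), DESeq2 size factors and TMM over all listed miRNAs each gave 1, 2 and 1 (without miR-151a-5p, with miR-151a-3p, and without miR-708-5p), and summing miR-151b into miR-151a-5p gave 1, 1 and 1 (that member lost). The summed family's log2 ratio was -0.46 under DESeq2 size factors and -0.42 under TMM over all miRNAs for 5 min against control (-0.25 as reported), and -0.39 and -0.37 for 5 min against 3 min (-0.26 as reported). All measured miRNAs past 1.5-fold numbered 28, 67 and 50, and 83, 145 and 135 at an average of 5 counts or more, or 149, 260 and 264 with no filter, where more scarce miRNAs enter. Hairpins past 1.5-fold in arm ratio numbered 4, 16 and 9 of 49, and 1, 7 and 1 of 24 with both arms averaging 100 counts or more. Over the 4 other scalings and the miR-151b sum, miR-708-5p stayed between 2.30-fold and 2.68-fold above control after 5 min and miR-151a-3p between 1.33-fold and 1.55-fold below it. At 12 to 52 counts per library, ratios of miR-708 and miR-151a-5p are limited by depth. No paired analysis was possible because each group held 1 library.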

Other observations

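The control library held reads of 639 of the 2588 miRNAs and the 3 min library of 663, while the shallowest library, after 5 min, held reads of 708. The miRNAs under the count minimum held 0.169% of the control counts, 0.180% of the 3 min counts and 0.295% of the 5 min counts.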
